A study of Mus musculus with 24 samples.

Results

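The 6 wild-type tumour-bearing mouse livers of this series (CCA.Wild-type) were ranked by how much duct epithelial RNA they held, and the upper 3 were set beside the lower 3. The ranking used the mean of log2(TPM + 1) over 5 markers of bile duct epithelium, where TPM is the authors' level corrected for gene length. The markers were the keratins Krt7 and Krt19, the adhesion molecule Epcam, the transcription factor Sox9 and the tight junction protein Cldn4. The 6 libraries are 6 of 24 in the series. The 3 libraries with the higher score are called duct-marker-rich and the 3 with the lower score duct-marker-poor. Since the sets were formed from these RNA levels, every difference between them is a description and carries no test.

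The 6 livers came from mice of wild-type genotype that had been transduced with AKT/YAP1, a pair of oncogenes given to induce cholangiocarcinoma (CCA), the cancer of bile duct epithelium. The controls were 6 wild-type livers without tumour that had received an empty transduction (Ctrl.Wild-type). A further 6 tumour-bearing and 6 control livers came from Mdr2-/- mice (CCA.Mdr2-/- and Ctrl.Mdr2-/-), which lack the canalicular phospholipid transporter encoded by Abcb4. The sources used here give no strain, sex, age or time after transduction, no species of the delivered sequences and no cell type reached by them. The labels do not say whether the libraries of a group were taken from different animals, and p-values then measure only the spread between libraries, which may be technical.

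Cholangiocytes, the epithelial cells of bile ducts, share a progenitor with hepatocytes, the main cells of the liver. Notch and YAP signalling are known to favour the duct fate, and hepatocytes with sustained activity of these pathways can take on duct-like features. YAP is a co-activator that binds DNA through TEAD factors, and AKT is a kinase of growth factor signalling.

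The duct-marker score was 2.996 in replicate 3, 2.64 in replicate 6 and 2.32 in replicate 5, the duct-marker-rich set. It was 1.14 in replicate 4, 0.992 in replicate 1 and 0.983 in replicate 2, the duct-marker-poor set. A gap of 1.18 separated replicates 5 and 4, the members nearest to the dividing line, and the 6 wild-type controls lay between 0.655 and 1.001. The poor set therefore sat at the upper edge of the controls, with 2 of its 3 libraries at or below the highest control. The tumour-bearing Mdr2-/- livers, which the ranking did not use, spanned 2.56 to 4.14, and the Mdr2-/- controls 1.94 to 3.41. The same sets formed when each marker was left out in turn, when TMM-scaled counts replaced TPM, and when 24 other duct genes replaced the markers.

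**Figure D1:**
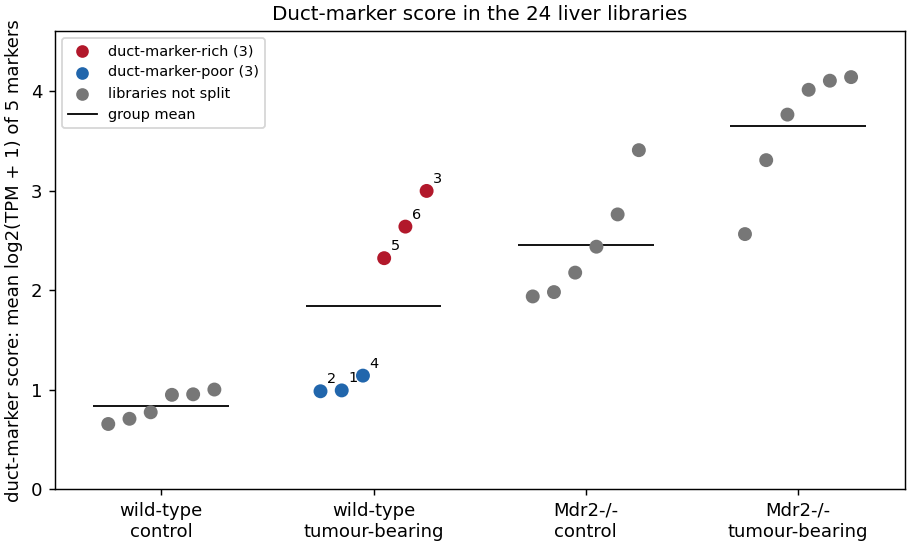
Duct-marker score (mean log2(TPM + 1) of Krt7, Krt19, Epcam, Sox9 and Cldn4, vertical axis) in each library of the 4 groups, with lines at group means and replicate numbers beside the wild-type tumour-bearing livers. Replicates 3, 6 and 5 lie between 2.32 and 2.996, replicates 4, 1 and 2 between 0.983 and 1.14, and the wild-type controls between 0.655 and 1.001.

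Library totals were 23016702 to 30288385 counts in the wild-type tumour-bearing livers, so that 1 CPM (1 of 1000000 counts after TMM scaling) rested on 22.7 to 29.4 counts. The mitochondrial share was 4.28, 6.40 and 4.94% of counts in the rich replicates 3, 5 and 6, and 4.81, 5.02 and 7.27% in the poor replicates 1, 2 and 4, so the sets overlapped. Replicate 6 stood apart from the other 5 libraries. Its share of 7 abundant nuclear non-coding RNAs was 2.30%, against 5.51 to 6.51% in the others, and its count profile differed most from the rest (chi-square per gene of 177.5 to 279.5 against its 5 partners, and 32.9 to 76.5 among the other 10 pairs). Replicates 1 to 4 carry 4 consecutive numbers in their sample titles, while the numbers of replicates 5 and 6, both in the rich set, lie apart from these. The labels do not call the numbers a batch. Counts are therefore given also without replicate 6 and within replicates 1 to 4, where replicate 3 alone was set against replicates 1, 2 and 4.

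Levels below are CPM, listed for the rich replicates 3, 5 and 6 and then for the poor replicates 1, 2 and 4. A difference is rich minus poor on the scale of log2(CPM + 0.5), with the SE over 3 and 3 libraries. A gene was counted as higher or lower when the difference was at least 1 in size, a 2-fold change, and the sets did not overlap. Changes between the 6 wild-type tumour-bearing and 6 control livers are log2 fold changes (± SE) from edgeR's quasi-likelihood test with Benjamini-Hochberg adjustment over 17216 genes. A gene rose or fell at an adjusted p under 0.05 (2911 genes, 16.9%, rose and 1976, 11.5%, fell). The labels of these groups do not depend on the split, but the tumour-bearing libraries are the same 6 that were split. For genes named for their difference between the sets, these p-values are therefore not separate support.

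Of 17211 genes outside the 5 markers, 333 (1.93%) were higher and 96 (0.558%) lower in the duct-marker-rich livers. At these shares, 0 counted genes is a common result for a list of 20 genes or fewer. With no demand on size, 1907 genes (11.1%) lay higher and 1767 (10.3%) lower without overlap, and the median difference of all genes was 0.01. The excess of higher over lower genes at 2-fold was larger when libraries were scaled by their totals (460 higher and 52 lower, with a median of 0.13 over all genes) and on the authors' TPM (349 and 32, median 0.21). Without replicate 6, 464 genes were higher and 44 lower. The lower count reached 202 without replicate 3, 212 without replicate 4 and 332 without replicate 5. Within replicates 1 to 4 there were 814 higher and 96 lower genes, of which 310 and 41 were also counted with all 6 libraries.

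Over all genes tested, the poor set mostly overlapped the wild-type controls, lying above all of them in 11.1% and below in 7.39%. Overlap is therefore not particular to the genes counted here. In 301 of the 333 genes all 3 rich libraries lay above all 6 controls, against 2497 (14.5%) of all genes. The 3 poor libraries lay above all controls in 98 of the 333, against 1910 (11.1%) of all genes, and overlapped the controls in 230. Of the 96 lower genes, the poor libraries overlapped the controls in 80 and the rich libraries lay below all controls in 47, against 1554 (9.03%) of all genes, while the poor libraries did so in 9, against 1272 (7.39%). Since the rich set was chosen by levels in the same libraries, these counts describe where each set lay and test nothing.

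Duct epithelial genes other than the markers differed in part. Of 23 tested genes on a duct list that holds none of the 5 markers, 10 were higher in the rich set and 0 lower, with a median difference of 0.71. Among them were Spp1, Cftr, Ehf, Bicc1, Anxa3 and Cldn7. Spp1, which encodes the secreted phosphoprotein osteopontin, was at 1308, 1277 and 596 CPM in the rich and at 148, 317 and 197 CPM in the poor livers. All 6 exceeded the controls (40.1 to 119 CPM), and the sets differed by 2.25 ± 0.49. Between the labelled groups Spp1 rose by 3.17 ± 0.51 (edgeR adjusted p = 5.7e-05). In bulk tissue, fewer cells of a type and less RNA per cell cannot be told apart.

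Cftr, the apical chloride channel of cholangiocytes, was at 13.7, 9.63 and 6.18 CPM in the rich and 0.528, 1.62 and 0.736 CPM in the poor livers, a difference of 2.83 ± 0.44. Ehf, an epithelial ETS transcription factor, was at 14.3, 10.3 and 9.63 CPM against 0.792, 1.17 and 1.21 CPM, a difference of 2.93 ± 0.21. For both genes the poor libraries overlapped the controls, whose highest values were 0.931 CPM for Cftr and 1.64 CPM for Ehf. Cftr rose by 3.70 ± 0.76 (edgeR adjusted p = 0.000806) and Ehf by 2.64 ± 0.66 (adjusted p = 0.00438, a call lost with limma on the authors' TPM at an adjusted p of 0.0559). Not every duct gene followed the split. Wfdc2, a secreted protease inhibitor of epithelia, was at 26.3, 16.4 and 20.04 CPM in the rich and 26.8, 29.8 and 16.8 CPM in the poor livers, and Krt23, a keratin, differed by -0.22 ± 0.36. The sets overlapped for both genes, yet Wfdc2 rose by 4.13 ± 0.32 over the controls (edgeR adjusted p = 9.92e-10), with all 6 tumour-bearing livers above the highest control of 1.64 CPM.

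The largest differences of all were those of Clca3a2 and Prss35. Clca3a2, of the calcium-activated chloride channel regulator family, was at 24.4, 18.2 and 8.42 CPM in the rich and 0.396, 1.86 and 0.866 CPM in the poor livers (difference 3.50 ± 0.60). Prss35, an inactive member of the serine protease family, was at 21.0, 12.6 and 7.56 CPM against 0.836, 0.997 and 0.476 CPM (3.39 ± 0.45). Gabrp, the pi subunit of the GABA-A receptor, was at 15.7, 18.01 and 10.5 CPM against 1.10, 1.79 and 2.12 CPM (2.81 ± 0.31). In each of these the lowest rich library lay above the highest poor one, and replicates 3 and 5 lay above replicate 6. Over the controls Clca3a2 rose by 4.68 ± 0.85 (edgeR adjusted p = 0.000289), Prss35 by 5.46 ± 0.89 (adjusted p = 7.76e-05) and Gabrp by 3.99 ± 0.71 (adjusted p = 0.000218).

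Also among the 12 largest were Sncg (gamma-synuclein, 3.11 ± 0.42), Akr1cl (of the aldo-keto reductase family, 2.86 ± 0.69), Unc5cl (a death domain protein, 2.73 ± 0.29) and Tspan8 (a tetraspanin, 2.73 ± 0.62). Egflam (an extracellular matrix protein, 2.47 ± 0.32), Scara3 (a scavenger receptor family member, 2.34 ± 0.33) and Ankrd1 completed them. Akr1cl was at 0.0880, 0.688 and 0.0866 CPM in the poor livers, which is near the limit of detection, and its difference depends on the added constant. The poor set overlapped the controls in 10 of the 12 genes, the exceptions being Prss35 and Gabrp. Such overlap was also the usual case over all genes tested.

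**Figure D2:**
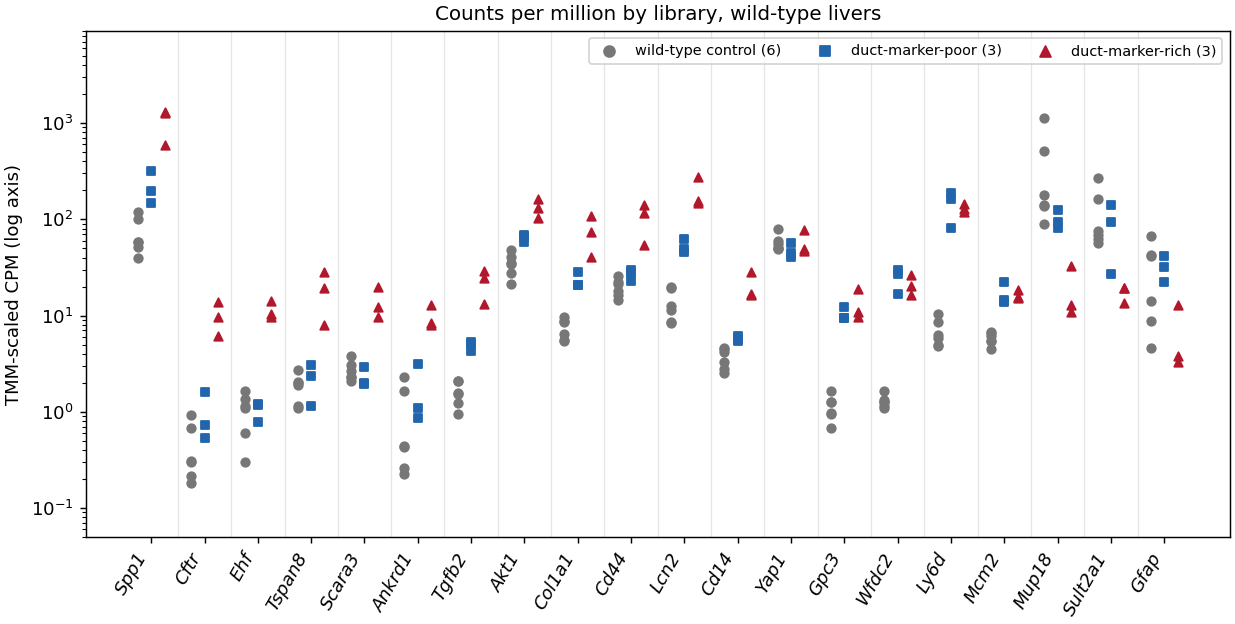
TMM-scaled CPM (log axis) of 20 genes in each wild-type library: circles for the 6 controls, squares for the 3 duct-marker-poor and triangles for the 3 duct-marker-rich tumour-bearing livers. For Spp1 the rich livers lie between 596 and 1308 CPM and the poor between 148 and 317, while for Wfdc2 and Ly6d both sets lie together above the controls.

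Both delivered oncogenes have mouse counterparts in the count table. Akt1 was at 132, 104 and 162 CPM in the rich and 58.5, 65.0 and 68.1 CPM in the poor livers, a difference of 1.03 ± 0.19, and all 6 values exceeded the controls (21.2 to 47.5 CPM). Akt1 rose by 1.51 ± 0.26 between the labelled groups (edgeR adjusted p = 0.000103). Yap1 was at 47.2, 48.8 and 77.4 CPM against 40.2, 44.8 and 56.4 CPM, with overlapping sets (0.27 ± 0.27), and lay within or below the control range of 48.6 to 78.4 CPM. How far reads of the delivered sequences were counted in these genes is not known. Abcb4, the gene lost in Mdr2-/- mice and a check of genotype, was at 165, 220 and 361 CPM in the rich and 199, 210 and 246 CPM in the poor livers, and the sets overlapped. Of 18 genes of the AKT and YAP pathways, 2 were higher and 0 lower, with a median of 0.27. The second was Tead2, a TEAD family DNA-binding partner of YAP, at 7.51, 3.79 and 3.38 CPM against 1.28, 1.48 and 1.30 CPM, a difference of 1.47 ± 0.33. Tead2 rose by 1.55 ± 0.41 over the controls (edgeR adjusted p = 0.00558).

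Among genes known as targets of YAP, 6 of 18 tested were higher in the rich livers and 0 lower (median 0.66). They were Ankrd1, Tgfb2, Rassf9, Ptpn14, Arhgef17 and F3. Ccn1, also on that list, was not matched to a symbol of the count table and so was not tested. Ankrd1, a cardiac and stress-induced ankyrin repeat protein widely used as a YAP readout, was at 12.9, 8.46 and 7.94 CPM against 1.10, 0.860 and 3.12 CPM, a difference of 2.34 ± 0.48. Tgfb2, the growth factor TGF-beta2, was at 29.3, 24.6 and 13.3 CPM against 5.02, 5.29 and 4.29 CPM, a difference of 2.03 ± 0.35. The poor set lay above every control for Tgfb2 (highest control 2.08 CPM), and overlapped the controls for Ankrd1 (highest control 2.30 CPM). Ankrd1 rose by 2.76 ± 0.64 (edgeR adjusted p = 0.00229) and Tgfb2 by 3.13 ± 0.45 (adjusted p = 1.44e-05). Against the trend, Nt5e, the ecto-enzyme CD73, was at 40.7, 41.8 and 49.8 CPM in the rich and 71.0, 55.4 and 47.5 CPM in the poor livers, and the sets overlapped.

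The 250 bases before the start of Ankrd1 are shown because they hold the letters bound by TEAD factors, and those of Cftr as an example of a duct gene whose window does not hold them. Both are RefSeq sequences on the gene's own strand in build GRCm38.p6, which is not the build of the counts (Ankrd1 at chr19:36119845-36120094, minus strand, and Cftr at chr6:18170437-18170686, plus strand). Capitals mark GGAATG, the letters searched for on both strands (reverse CATTCC).
Ankrd1: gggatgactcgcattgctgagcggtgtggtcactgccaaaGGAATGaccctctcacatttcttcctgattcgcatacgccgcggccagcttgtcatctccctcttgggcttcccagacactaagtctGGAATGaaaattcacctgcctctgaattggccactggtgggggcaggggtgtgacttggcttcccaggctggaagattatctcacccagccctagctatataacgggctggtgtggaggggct
Cftr: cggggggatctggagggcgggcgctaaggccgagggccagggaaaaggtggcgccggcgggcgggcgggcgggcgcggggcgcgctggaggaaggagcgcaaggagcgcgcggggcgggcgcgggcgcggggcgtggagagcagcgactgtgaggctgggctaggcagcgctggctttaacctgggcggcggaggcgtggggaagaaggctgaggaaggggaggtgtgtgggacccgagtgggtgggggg
Ankrd1 held 2 matches, 210 and 123 bases before the start, and Cftr 0. For shares over genes, the whole reference promoter sequence was searched without a cut to these 250 bases, and a match in any promoter of a gene counted. A match was found in 1803 of 11969 genes with a promoter sequence (15.1%) and in 34 of 229 genes higher in the rich set (14.8%). It was found in 9 of 45 lower genes (20%) and in 6 of 13 YAP targets (46.2%). A match is a description of letters and not of binding.

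Notch pathway genes were all above 0 in difference (14 of 14, against 8781 of 17211 genes), but 1 was counted. This was Jag1, a Notch ligand, at 36.8, 29.9 and 27.5 CPM against 17.5, 13.7 and 14.3 CPM (1.02 ± 0.16). Jag1 rose by 1.01 ± 0.22 over the controls (edgeR adjusted p = 0.00134), and the poor libraries reached down into the control range (10.4 to 14.3 CPM). Heyl, a Notch-induced repressor, differed by 0.98 ± 0.27 without overlap. In the EGF receptor family and its ligands 0 of 10 were counted (median 0.38). Erbb2 differed by 0.90 ± 0.16, while Egfr overlapped, at 128, 395 and 567 CPM against 126, 158 and 165 CPM, with replicate 3 among the poor livers.

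Extracellular matrix genes included 12 of the higher genes. Of 30 tested, 12 were higher and 0 lower, with a median difference of 0.93, and 19 lay higher without overlap. The summed level of the list was 3484 to 5600 CPM in the rich and 2540 to 2992 CPM in the poor livers. The controls spanned 2602 to 5208 CPM and so overlapped both sets in the sum. Col1a1, a chain of fibrillar collagen I, was at 108, 40.9 and 73.8 CPM in the rich and 20.7, 20.8 and 28.2 CPM in the poor livers, a difference of 1.56 ± 0.43. Both sets lay above the controls (5.42 to 9.64 CPM), and Col1a1 rose by 2.72 ± 0.37 (edgeR adjusted p = 8.24e-06). Loxl2, a collagen cross-linking enzyme, differed by 1.45 ± 0.21. Its relative Lox was at 17.0 and 11.3 CPM in replicates 3 and 5 but at 3.21 CPM in replicate 6, within the poor range of 2.38 to 3.23 CPM. Dcn, the proteoglycan decorin, went the other way by -0.33 ± 0.15 with overlap.

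Markers of stellate cells and myofibroblasts moved in part with the matrix genes. Of 15 tested, 4 were higher (Cspg4, Acta2, Myl9 and Fbln2) and 0 lower, with a median of 0.51. Gfap, an intermediate filament also of stellate cells, was not on this list and was counted lower. It was at 12.8, 3.84 and 3.31 CPM in the rich against 31.9, 41.7 and 22.2 CPM in the poor livers. Acta2, smooth muscle actin, was at 18.96, 8.63 and 5.11 CPM against 2.11, 2.991 and 0.996 CPM, a difference of 2.06 ± 0.63. Lrat, the retinol-esterifying enzyme of quiescent stellate cells, was at 53.6, 71.9 and 52.7 CPM against 73.2, 82.2 and 89.1 CPM, lower without overlap by -0.46 ± 0.17. The summed level of the list was 754 to 868 CPM in the rich, 766 to 791 in the poor and 553 to 761 in the control livers, so the sets overlapped in the sum. The part of these cells in the matrix result was not tested.

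Cell cycle genes were higher in 7 of 25 (Mki67, Ccnb1, Ccnb2, Ccna2, Cdc20, Plk1 and Foxm1), with 0 lower and a median of 0.48. Ccnb1, cyclin B1 of mitosis, was at 7.41, 5.46 and 3.002 CPM against 1.804, 1.75 and 1.52 CPM (1.33 ± 0.35) and rose by 2.08 ± 0.48 over the controls (edgeR adjusted p = 0.00217). Mcm2, a subunit of the replicative helicase, was at 18.3, 15.3 and 15.6 CPM against 22.6, 13.7 and 14.5 CPM (-0.01 ± 0.24). Both sets lay above the controls (4.49 to 6.79 CPM), and Mcm2 rose by 1.52 ± 0.21 (edgeR adjusted p = 7.1e-06). The sets overlapped for this gene and did not for the 7 above. With 2 CPM added in place of 0.5, 1 of the 25 cell cycle genes was counted.

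Among immune genes, of 14 markers of recruited macrophages and monocytes 2 were higher, Cd14 and Itgax, with a median of 0.50. Cd14, a co-receptor for bacterial lipopolysaccharide, was at 28.1, 16.7 and 16.2 CPM against 6.07, 5.40 and 5.67 CPM (1.70 ± 0.26) and rose by 1.84 ± 0.36 (edgeR adjusted p = 0.000428). Ms4a7, a macrophage membrane protein, was at 7.17 and 2.84 CPM in replicates 3 and 5 and at 0.897 CPM in replicate 6, among the poor livers. Of 20 chemokines 1 was higher, the monocyte attractant Ccl2 (1.41 ± 0.50), and Ccl9 differed by -0.98 ± 0.55 with overlap. The summed chemokine level went the other way without overlap, at 522 to 688 CPM in the rich and 732 to 930 CPM in the poor livers (controls 534 to 667 CPM). The 8 MHC class II genes had differences above 0 (median 0.52), with 4 higher without overlap and 0 counted. Resident Kupffer cell (10 tested), neutrophil (7), T and NK cell (15), B and plasma cell (9) and interferon-stimulated lists (20) held 0 counted genes, with medians of 0.11, 0.01, 0.05, 0.23 and 0.23. With 1.93% of all genes higher and 0.558% lower, 0 is a common count for lists of these sizes.

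Lcn2, the siderophore-binding protein lipocalin 2, was the only counted gene of 19 acute phase proteins, at 272, 150 and 156 CPM against 48.6, 62.8 and 45.5 CPM (1.83 ± 0.31). It rose by 3.20 ± 0.44 over the controls (edgeR adjusted p = 7.06e-06), and the list had a median of 0.04. Of 13 mesenchymal transition genes 2 were higher, Cd44 and Plaur (median 0.42). Cd44, the hyaluronan receptor, was at 142, 117 and 53.5 CPM against 27.5, 29.8 and 23.0 CPM (1.84 ± 0.44), with the poor set overlapping the controls (14.7 to 25.7 CPM). Cd44 rose by 1.73 ± 0.38 (edgeR adjusted p = 0.00133). Vim, the intermediate filament vimentin, differed by 0.87 ± 0.26 without overlap and was not counted.

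Leaving out 1 library moved several of these counts. A lack of overlap is easier to meet with fewer libraries. Among all genes, 276 were higher without replicate 3 and 464 without replicate 6, against 333 with all 6. Within replicates 1 to 4, where replicate 3 stood alone on the rich side, the count over all genes was larger still. Without replicate 3, matrix genes numbered 5 higher, cell cycle genes 4, YAP targets 5, recruited macrophage markers 1 and duct genes 10. Without replicate 6 they numbered 14, 10, 7, 6 and 8. Within replicates 1 to 4 they numbered 19, 12, 8, 8 and 10, and 6 of 8 MHC class II genes were then higher. Chemokines numbered 4 higher of 20 without replicate 6 and 5 within replicates 1 to 4. Interferon-stimulated genes numbered 1 and 5 of 20 in these subsets.

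**Figure D3:**
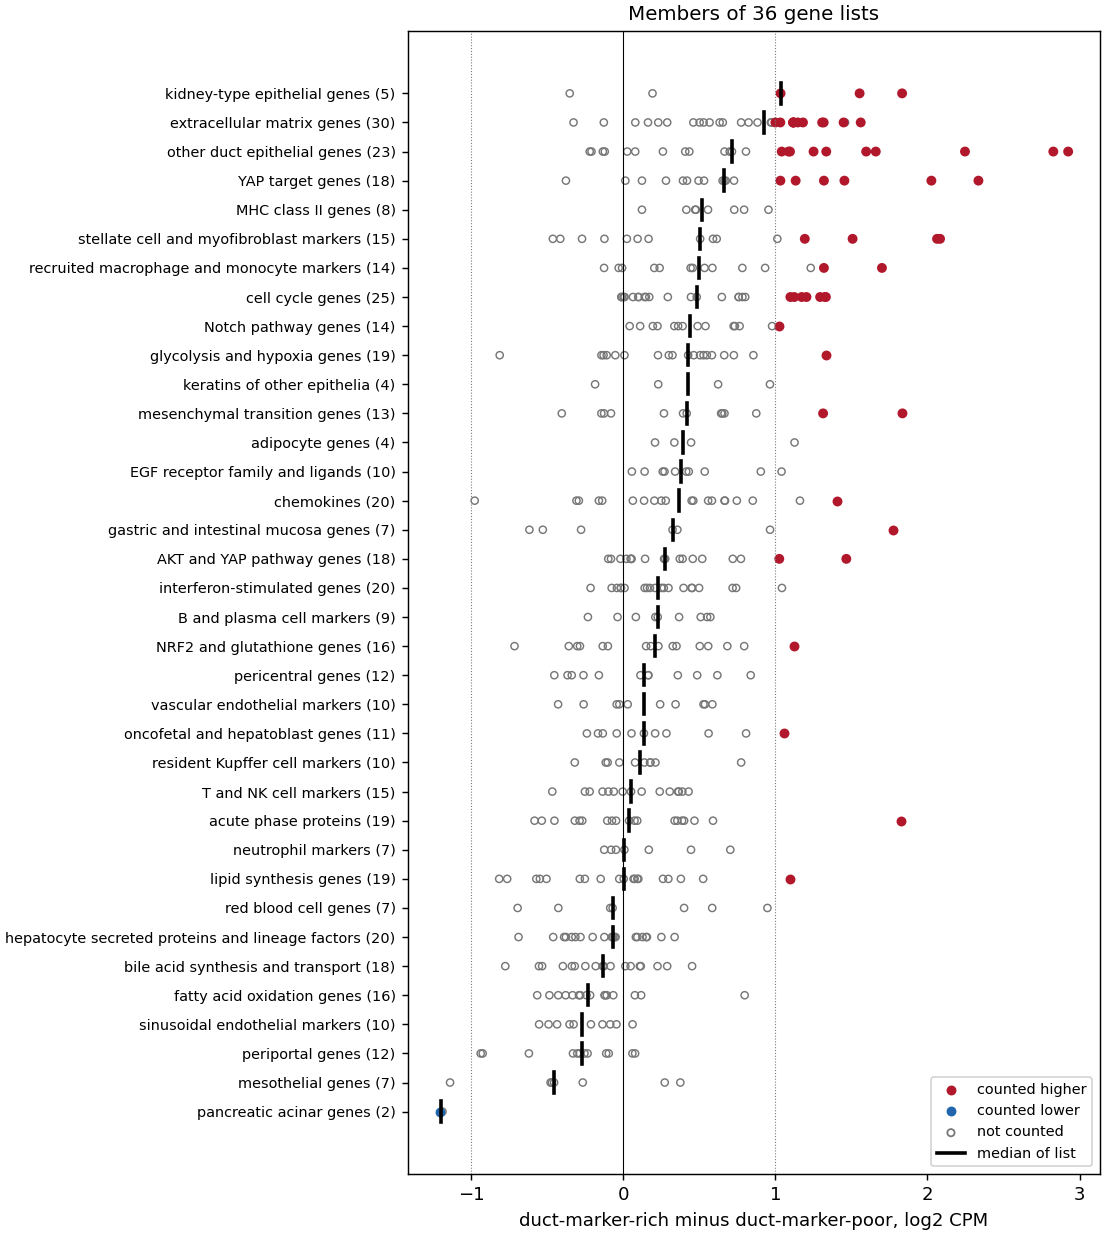
Difference between duct-marker-rich and duct-marker-poor livers (log2 CPM, horizontal axis) for each tested member of 36 gene lists, with the number tested in brackets; filled points were counted (at least 2-fold and no overlap), and black bars are list medians. Matrix genes have a median of 0.93, other duct genes 0.71 and hepatocyte genes -0.07.

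Hepatocyte genes were read from 5 lists of main functions and, separately, from multigene families. Of 20 secreted proteins and lineage factors of hepatocytes, 0 were counted in either direction (median -0.07), and their summed level was 58320 to 94720 CPM in the rich, 70010 to 96880 in the poor and 103000 to 141400 in the control livers. Hnf4a, the master regulator of hepatocytes, overlapped, at 294, 304 and 648 CPM against 226, 290 and 436 CPM. Pericentral genes (12, median 0.14), periportal genes (12, median -0.27), bile acid synthesis and transport (18, median -0.13) and fatty acid oxidation (16, median -0.23) also held 0 counted genes. Such a count is common for lists of these sizes, since 1.93% of all genes were higher and 0.558% lower. Of the periportal genes, 3 lay lower without overlap, and 2 were counted lower without replicate 4, without replicate 5 and within replicates 1 to 4. Among the 3, Arg1, the urea cycle arginase, was at 1187, 1946 and 884 CPM against 2894, 2382 and 2026 CPM (-0.92 ± 0.36), and Otc, the ornithine transcarbamylase of the same cycle, differed by -0.94 ± 0.29. Baat, which conjugates bile acids, was lower without overlap by -0.78 ± 0.26.

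The lower genes held many members of multigene families of hepatocytes. Of 22 tested genes and pseudogenes of the major urinary proteins (Mup), 12 were lower and 0 higher, and of 9 genes of the Sult2a sulfotransferases all 9 were lower. The summed Mup share overlapped between the sets, at 0.432, 0.604 and 0.229% of counts in the rich and 0.657, 0.789 and 0.420% in the poor livers. Mup20, an abundant member, overlapped too, at 1034, 2136 and 737 CPM against 1158, 2669 and 634 CPM (-0.09 ± 0.75), and rose by 4.29 ± 0.54 over the controls (edgeR adjusted p = 2.27e-06). Mup18 was at 10.8, 32.6 and 12.8 CPM in the rich and 126, 93.9 and 82.0 CPM in the poor livers (-2.54 ± 0.52). The poor livers lay at or below the lower controls, which spread from 89.9 to 1138 CPM. Sult2a1, which sulfates bile acids and steroids, was at 19.2, 19.4 and 13.5 CPM against 142, 26.9 and 94.0 CPM (-2.03 ± 0.74), with replicate 2 near the rich livers. Members of each family are close copies, so reads may be split among them and single members are uncertain. The sex of these livers is not given, and a part of sex in these differences was not tested. Without replicate 6, 12 Mup and 7 Sult2a genes were lower, and the numbers were 13 and 7 within replicates 1 to 4. On the authors' TPM 9 Mup and 3 Sult2a genes were lower, and with 2 CPM added 9 and 5.

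Gfap, an intermediate filament of astrocytes and stellate cells, was at 12.8, 3.84 and 3.31 CPM in the rich and 31.9, 41.7 and 22.2 CPM in the poor livers (-2.38 ± 0.63). The controls overlapped both sets, from 4.601 to 67.4 CPM. Sinusoidal endothelial markers (10 tested) held 0 counted genes and a median of -0.27, with 3 lower without overlap, among them the hyaluronan receptor Lyve1 (-0.49 ± 0.05).

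Many changes between the tumour-bearing and control livers were shared by both sets. Of 1475 genes (8.57%) that rose at least 2-fold in wild-type tumour-bearing livers, both sets lay above all controls in 812, the rich set alone in 431, the poor set alone in 114 and neither in 118. The sets overlapped in 510 of the 812. Of the others, 293 lay higher and 9 lower in the rich set. Among all genes tested, 11.1% lay higher and 10.3% lower without overlap. Over the 1475 genes the median difference from the control mean was 1.35 in the rich and 0.78 in the poor set, and 265 were counted higher in the rich set. High levels in the rich set helped genes enter the 1475, so these values are a description. Of 429 genes (2.49%) that fell at least 2-fold, both sets lay below all controls in 147, the rich alone in 148 and the poor alone in 23.

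Among the shared rises Ang5, of the angiogenin ribonuclease family, was at 41.1, 34.2 and 43.8 CPM in the rich and 47.9, 71.5 and 40.1 CPM in the poor livers, with 0.733 CPM in the highest control. It rose by 6.70 ± 0.52 (edgeR adjusted p = 1.43e-09). Cyp4a12a, a fatty acid hydroxylase that is male-biased in mouse liver, was at 119, 138 and 349 CPM against 117, 166 and 106 CPM, above the highest control of 4.58 CPM (rise of 6.08 ± 0.80, edgeR adjusted p = 8.07e-06). Both genes belong to families of close copies. No sex is given for any liver, and sex was not read from the counts. Whether the groups, or the rich and poor sets, differed in sex was not tested. Ly6d, a small membrane protein of the Ly6 family, was at 146, 128 and 119 CPM against 162, 187 and 80.7 CPM, above the highest control of 10.4 CPM (rise of 4.34 ± 0.33, edgeR adjusted p = 9.92e-10). Gpc3, an oncofetal proteoglycan of liver, was at 9.61, 10.97 and 18.8 CPM against 12.2, 9.35 and 9.44 CPM and rose by 3.36 ± 0.45 (edgeR adjusted p = 5.19e-06). In all 4 genes the sets overlapped and every tumour-bearing liver exceeded every control. Of 11 oncofetal genes 1 was counted higher, the RNA-binding protein Igf2bp1 (1.06 ± 0.32).

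**Figure D4:**
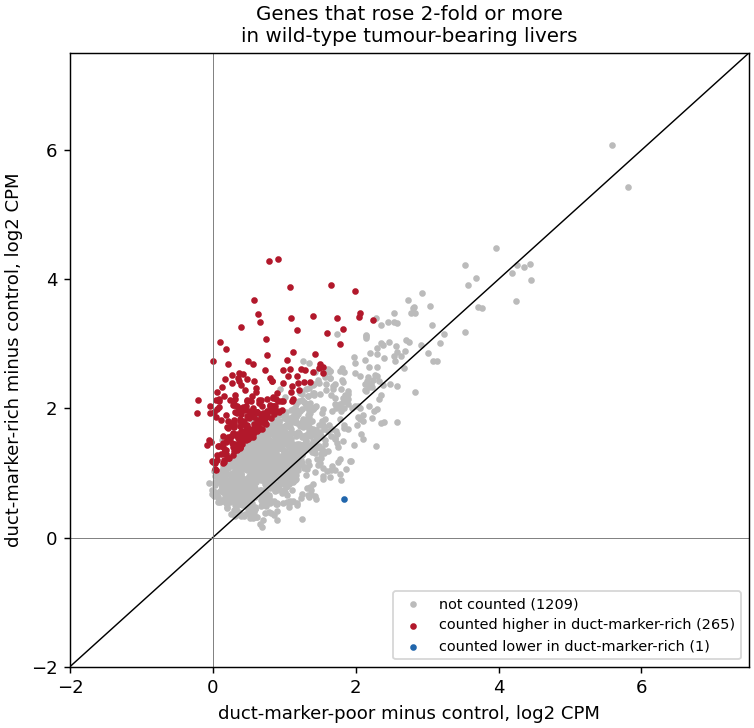
Mean log2 CPM difference from the wild-type controls in duct-marker-poor (horizontal axis) and duct-marker-rich livers (vertical axis) for the 1475 genes that rose at least 2-fold; the line marks equal differences. The 265 red genes, higher in the rich set, sit above the line, while Ang5 and Cyp4a12a, at the upper right, lie near it.

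The 6 tumour-bearing Mdr2-/- livers, which had no part in the split, were examined along the same score. The score was computed from RNA of these same 6 libraries. The p-values therefore measure how far a gene varied together with the marker RNA, and are not separate support for the split. For each gene a slope was fitted, the log2 change per unit of duct-marker score, with edgeR's quasi-likelihood test adjusted over all genes. The scores of replicates 1 to 6 were 2.56, 4.10, 4.01, 3.76, 3.31 and 4.14. The test called 26 genes up (0.151%) and 16 down (0.093%), of which 15 were among the 333 higher genes and 4 among the 96 lower genes. The slope was positive in 325 of the 333 genes, against 8959 of all 17211 (52.1%), with a median of 0.71 against 0.02, and negative in 78 of the 96, with a median of -0.55.

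Unc5cl was at 2.76, 13.6, 10.4, 12.1, 8.80 and 22.3 CPM in Mdr2-/- replicates 1 to 6, a slope of 1.504 ± 0.26 (edgeR adjusted p = 0.0383). Egflam had a slope of 1.23 ± 0.16 (adjusted p = 0.0185) and Scara3 one of 1.22 ± 0.17 (adjusted p = 0.0185), both by the same edgeR test. Foxj1, the master regulator of motile cilia, had a slope of 1.09 ± 0.19 (edgeR adjusted p = 0.0383) and was at 6.18, 5.79 and 4.002 CPM in the rich against 0.396, 1.31 and 0.909 CPM in the poor wild-type livers. Dcdc2a, a ciliary protein of cholangiocytes, had a slope of 1.16 ± 0.20 (edgeR adjusted p = 0.0365) and a wild-type difference of 2.04 ± 0.20. Each of these 5 genes was lowest in Mdr2-/- replicate 1, which also had the lowest score.

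Gfap had the opposite sign in the Mdr2-/- livers too, at 54.4, 15.5, 21.8, 27.0, 33.0 and 11.6 CPM in replicates 1 to 6 (slope -1.21 ± 0.18, edgeR adjusted p = 0.0185). Akt1 (0.90 ± 0.19, edgeR adjusted p = 0.0575), Cftr (0.94 ± 0.21, adjusted p = 0.0713) and Spp1 (0.85 ± 0.26, adjusted p = 0.162) had positive slopes that missed the threshold. All 3 passed it with DESeq2 (adjusted p = 0.000195, 0.00261 and 0.00783) and without a filter on low counts (edgeR adjusted p = 0.00323, 0.00035 and 0.0477). Akt1 also passed with limma on the authors' TPM (adjusted p = 0.0274), and Akt1 and Cftr without replicate 5 (edgeR adjusted p = 0.0466 and 0.0408). Over all alternatives the adjusted p reached 1 for each, in edgeR's fit without replicate 1. For leading members of the lower families the slope was 0.11 ± 0.28 for Mup18 (edgeR adjusted p = 0.883) and 0.29 ± 0.79 for Sult2a1 (adjusted p = 0.888).

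The number of calls depended on single Mdr2-/- libraries, while the 6 slopes called above kept their sign in every fit without 1 library. Without replicate 1 the slope was 1.37 for Egflam, 1.24 for Foxj1, 1.10 for Unc5cl and -1.56 for Gfap, each with an edgeR adjusted p of 1. Without replicate 2 the slopes of these 4 genes were 1.26, 1.12, 1.598 and -1.17, with adjusted p from 0.0533 to 0.079. Without replicate 1 edgeR called 0 genes (206 up and 159 down at an unadjusted p under 0.05), 289 of the 333 slopes remained positive against 53.5% of all genes, and 41 of the 96 were negative. Calls up numbered 0 without replicate 2 (1369 at an unadjusted p under 0.05), 54 without replicate 3, 4 without replicate 4 and 176 without replicate 5, and calls down numbered 2, 30, 6 and 135. Without the libraries farthest from the median score, replicates 1 and 5, 258 of the 333 were positive and 46 of the 96 negative, with 0 edgeR calls (405 up and 212 down at an unadjusted p under 0.05).

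**Figure D5:**
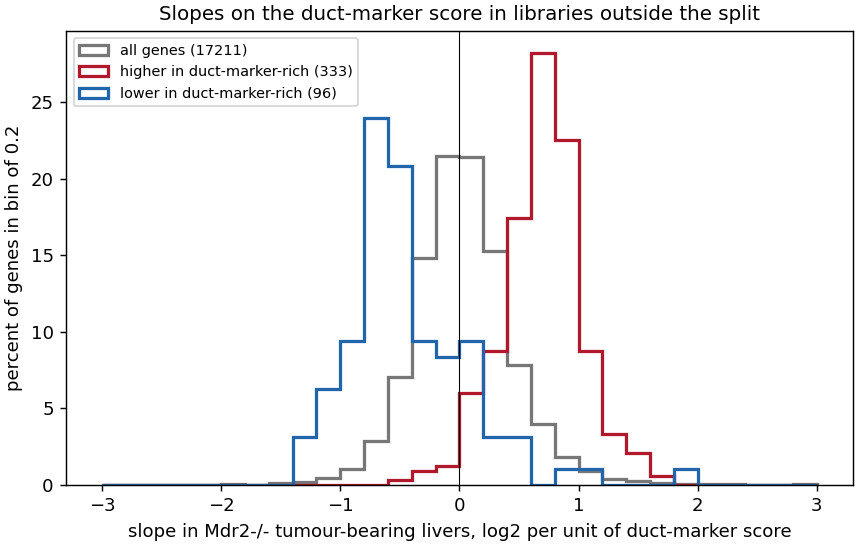
Slopes on the duct-marker score in the 6 tumour-bearing Mdr2-/- livers (log2 per unit of score, horizontal axis) as the percent of genes in each bin, for all 17211 genes, the 333 higher and the 96 lower in duct-marker-rich wild-type livers. The medians are 0.02, 0.71 and -0.55.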

How the data were processed

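Per the labels' protocols, paired-end libraries were made from mouse liver RNA after depletion of ribosomal RNA. The authors deposited raw counts per gene (49315 genes) and TPM values. The submitters' processing notes name the build mm39 and the tool DESeq2. Aligner, counter and annotation: not given in the sources used here. Strandedness is not stated, so a gene and its antisense partner cannot be told apart. Genes without a symbol (174) held at most 0.0178% of the counts of any library.

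The score used the authors' TPM. Counts were filtered (filterByExpr, minimum count 10, by label group, 17216 genes kept) and TMM-scaled with edgeR 4.0.16 in R 4.3.3. Replicates were numbered in the order of their labels, which pairs no samples. The labelled comparison used all 24 libraries, and the slope the 6 tumour-bearing Mdr2-/- libraries (glmQLFit, robust, 2-sided). Both were also run on simulated data, with outcomes not reported here. Such data cannot show how far the real fits depend on single libraries. Alternatives were DESeq2 1.42.0, limma 3.58.1 on log2(TPM + 1), other scalings, filters and added constants (0.1 and 2 CPM in place of 0.5), and fits without each library. Figures and promoter searches used Python 3.11.15.

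The members and the 36 gene lists (538 entries, 536 found in the table, 2 of them by RefSeq synonyms, and 487 tested) were chosen with earlier results of these data known. Genes were named by a rule: the markers, Abcb4, Akt1 and Yap1, the 12 largest differences each way (no overlap, at least 5 CPM, no predicted genes), and the 3 largest of each list with the largest the other way. Not every such gene is reported. Wfdc2, Gpc3, Foxj1, Dcdc2a, Ang5, Cyp4a12a, Ly6d and Mup20 were chosen after their values were seen, like the class of rises shared by both sets.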

Additional observations from a re-analysis of the deposited data

Results flagged for a closer look

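A library was noted when its distance to the nearest other library of its group of 6 exceeded 0.625 of the group's range. This held for 12 of 193 groups of values, where chance alone gives about 1 in 20.

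Among the wild-type tumour-bearing livers, replicate 6 lay apart in 4 measures. Its share of nuclear non-coding RNAs was 2.30% of counts, against 5.51 to 6.51% in the others. It held the highest level of Gstm3, a glutathione transferase, at 1037 CPM against 209 to 410 CPM. It was also highest for Cyp4a12a at 349 CPM (others 106 to 166 CPM) and for Gpc3 at 18.8 CPM (others 9.35 to 12.1 CPM). Replicate 3 was highest for the macrophage gene Ms4a7 at 7.17 CPM (others 0.653 to 2.84 CPM), and replicate 2 for Ang5 at 71.5 CPM (others 34.2 to 47.9 CPM). Of these genes, Gstm3 was counted higher in the rich set (1.12 ± 0.51). Of 16 NRF2 and glutathione genes, this one among them, 0 were counted without replicate 6 and 0 within replicates 1 to 4.

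In the wild-type controls, replicate 6 was highest for Krt23 at 8.09 CPM (others 1.33 to 2.25 CPM) and lowest for Nt5e at 75.8 CPM (others 130 to 142 CPM). Control replicate 1 was highest for the cadherins Cdh16 at 0.855 CPM (others 0.0436 to 0.215 CPM) and Cdh17 at 0.488 CPM (others 0.0426 to 0.182 CPM). Yap1 reached 78.4 CPM in control replicate 5 (others 48.6 to 59.0 CPM), and Jag1 reached 14.3 CPM in control replicate 4 (others 10.4 to 11.6 CPM).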

How the results depend on the processing

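The split was the same under all 7 other scores. Higher and lower genes numbered 570 and 226 with 0.1 CPM added, 136 and 48 with 2 CPM added, and 666 and 274 by edgeR's fitted fold change. The lower count was 52 with total library size and 32 on TPM, and the higher count was 814 within replicates 1 to 4. Without 1 library in turn, higher genes numbered 276 to 466 and lower genes 44 to 332. No counted difference named here changed sign under these settings. For the wild-type tumour effect, limma on TPM called 4494 genes up and 478 down, against 2911 and 1976 with edgeR. Slope calls up and down numbered 304 and 202 with DESeq2, 189 and 6 with limma on TPM, 402 and 354 without a filter, and 0 and 0 without the 2 libraries farthest from the median score. Leaving out 1 Mdr2-/- library in turn gave 0 to 176 up and 0 to 135 down. Lower genes with a negative slope, 78 of 96, numbered 46 without those 2 libraries and 41 to 82 without 1 library. The Akt1 slope reversed to -0.40 (edgeR adjusted p = 0.995) without those 2 libraries. The cause of these shifts was not tested. The rises with both sets above all controls moved by less than 1.5 times under 4 other scalings, a choice made after seeing the data.

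No paired analysis was possible because the labels give no replicate numbers. Low levels limit the precision: 1 CPM rests on 22.7 to 29.4 counts in these libraries.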

Other observations

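Of 5 tested kidney-type epithelial genes 3 were higher in the duct-marker-rich livers, Lrp2, Cdh16 and Pax8 (list median 1.03), while 7 genes of that list, among them Umod and Slc12a1, did not pass the filter on low counts. These are low levels, and the count was 0 of 5 on the authors' TPM (median 0.52) and 1 of 5 with 2 CPM added (median 0.59). Pax8, a transcription factor of kidney and thyroid, was at 2.48, 2.42 and 2.28 CPM in replicates 3, 5 and 6 and at 0.792, 0.997 and 0.952 CPM in replicates 1, 2 and 4. It rose by 2.39 ± 0.47 over the controls (edgeR adjusted p = 0.000549, and 0.0522 with limma on TPM). Of 7 tested gastric and intestinal genes 1 was higher, the cadherin Cdh17 (1.77 ± 0.25; list median 0.32), and Muc5ac, Cdx2 and Gkn1 had 0 counts in every wild-type tumour-bearing liver. Keratins of other epithelia (4 tested, median 0.43) held 0 counted genes, and 8 of that list did not pass the filter. Of 2 tested pancreatic acinar genes 1 was lower, the elastase Cela1 (-1.21 ± 0.49; list median -1.20), while the other 10 of that list had at most 7 counts in any wild-type tumour-bearing liver.

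The metabolic lists named next held 1 counted gene each, all higher, while 1.93% of all genes were higher. These were Slc16a3, a lactate exporter, of 19 glycolysis and hypoxia genes (1.33 ± 0.41; list median 0.43), Scd2, a fatty acid desaturase, of 19 lipid synthesis genes (1.10 ± 0.23; median 0.00), and Gstm3 of 16 NRF2 and glutathione genes (median 0.21). Vascular endothelial (10 tested, median 0.14), adipocyte (4, median 0.39), mesothelial (7, median -0.45) and red blood cell genes (7, median -0.07) held 0 counted genes, a common count for lists of these sizes.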
